A study of Mus musculus with 4 samples.

Results

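The genes described here are those of the mouse proteasome, taken by name: protein-coding genes of GENCODE vM21 on chromosomes 1 to 19 called Psm, with a letter from a to g and a digit after it. There were 49 of them among 20807 protein-coding genes. By role, 7 encode alpha and 7 constitutive beta subunits of the 20S core, 3 encode the immunoproteasome beta subunits Psmb8, Psmb9 and Psmb10, 6 encode ATPases and 11 other subunits of the 19S regulator, 6 encode activators or an inhibitor, 6 encode assembly chaperones, and 2 encode core subunits of testis (Psma8) and thymus (Psmb11). The name rule also took Psmc3ip, a recombination factor of meiosis that is not part of the proteasome. Chromatin accessibility (ATACseq) and occupancy of the histone variant H2A.Z (ChIPseq on chromatin cut with micrococcal nuclease) were measured in whole liver of male C57Bl/6 mice, 8 to 12 weeks old and on a normal diet. WT is described in the series as Uhrf1-Fl/fl, that is, with floxed alleles and no Cre. Uhrf1hepKO livers were Uhrf1-fl/fl;Alb:Cre, in which the albumin promoter drives Cre, so that Uhrf1 is deleted in hepatocytes. Uhrf1 is a factor needed to keep DNA methylation through replication. Whether the other cells of the liver kept Uhrf1 was not examined here. Each genotype had 1 library per assay, and whether the ATACseq and H2A.Z libraries of a genotype came from the same animal is not given in the sources used here. The 4 peak lists were thus compared with no replicate, and no test was possible. The 95% intervals of reads given below cover counting error only. Those of shares treat genes or peaks as independent draws, and neither kind covers the spread between mice.

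The proteasome degrades proteins tagged with ubiquitin. Its 20S core is a barrel of alpha rings around beta rings, and 3 beta subunits carry the active sites: Psmb6 (caspase-like), Psmb7 (trypsin-like) and Psmb5 (chymotrypsin-like). Interferon gamma induces Psmb9, Psmb10 and Psmb8, which take the places of Psmb6, Psmb7 and Psmb5 in newly built cores and shift the peptides made for MHC class I. The 19S regulator binds, unfolds and feeds substrates through its ring of ATPases. Genes of the constitutive subunits are broadly expressed and can be raised together by the transcription factor Nfe2l1 through antioxidant response elements.

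The promoters that set the constitutive catalytic genes beside the immunoproteasome genes are shown, with that of Psmb2, the member with the highest ATACseq fold. Each run holds 225 bases before and 25 from the TSS, the 5′ end of the gene, in GRCm38, 5′ to 3′ on the strand of the gene. Capitals mark matches, on either strand, to TGACNNNGC (core of the antioxidant response element), CCAAT (the box of that name), GAAANNGAAA (interferon-stimulated response element) or TTCNNNGAA (gamma-activated sequence). The same stretch of Psmb9 lies over exon sequence of Tap1 and was left out.
Psmb5 (chr14:54617998-54618247, minus strand): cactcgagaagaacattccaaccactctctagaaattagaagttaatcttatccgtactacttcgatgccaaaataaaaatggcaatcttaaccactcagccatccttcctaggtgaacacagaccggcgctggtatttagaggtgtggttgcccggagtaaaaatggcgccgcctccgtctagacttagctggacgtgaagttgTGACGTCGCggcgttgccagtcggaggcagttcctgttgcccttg
Psmb8 (chr17:34197496-34197745, plus strand): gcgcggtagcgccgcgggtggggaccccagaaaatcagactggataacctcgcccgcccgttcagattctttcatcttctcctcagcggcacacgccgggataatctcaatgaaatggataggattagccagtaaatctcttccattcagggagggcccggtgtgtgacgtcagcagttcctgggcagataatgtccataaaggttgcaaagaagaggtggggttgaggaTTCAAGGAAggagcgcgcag
Psmb6 (chr11:70525142-70525391, plus strand): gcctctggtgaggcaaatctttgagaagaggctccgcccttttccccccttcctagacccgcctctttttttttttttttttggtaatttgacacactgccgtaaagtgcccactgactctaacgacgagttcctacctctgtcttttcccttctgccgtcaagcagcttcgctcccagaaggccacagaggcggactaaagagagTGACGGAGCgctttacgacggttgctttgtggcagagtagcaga
Psmb7 (chr2:38644063-38644312, minus strand): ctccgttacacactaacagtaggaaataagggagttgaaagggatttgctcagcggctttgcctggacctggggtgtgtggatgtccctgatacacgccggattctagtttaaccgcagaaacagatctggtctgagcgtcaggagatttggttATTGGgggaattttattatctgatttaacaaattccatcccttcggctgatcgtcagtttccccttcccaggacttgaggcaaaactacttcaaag
Psmb10 (chr8:105938420-105938669, minus strand): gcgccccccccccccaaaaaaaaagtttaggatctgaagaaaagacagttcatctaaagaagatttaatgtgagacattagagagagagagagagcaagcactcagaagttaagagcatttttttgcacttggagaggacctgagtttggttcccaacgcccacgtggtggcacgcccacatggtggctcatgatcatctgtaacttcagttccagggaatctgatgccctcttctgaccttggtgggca
Psmb2 (chr4:126677405-126677654, plus strand): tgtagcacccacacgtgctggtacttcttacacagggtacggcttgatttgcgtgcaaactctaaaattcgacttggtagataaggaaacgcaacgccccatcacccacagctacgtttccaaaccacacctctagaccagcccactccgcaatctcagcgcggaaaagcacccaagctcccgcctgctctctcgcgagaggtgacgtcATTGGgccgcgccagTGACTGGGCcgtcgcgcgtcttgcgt

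The antioxidant core letters were found at Psmb5 (20 bases before the TSS), Psmb6 (19 before) and Psmb2 (1 before, running over the TSS), and none of the 4 sets of letters at Psmb9 or Psmb10. Psmb8 had the gamma-activated letters from base 5 after the TSS. Over 250 bases before to 50 after the TSS, the antioxidant core was at 6 of the 49 genes (12.2%, against 12.6% of all 20807 promoters), CCAAT at 18 (36.7%, against 38.6%), the interferon-stimulated element at 5 (10.2%, against 3.52%) and the gamma-activated sequence at 6 (12.2%, against 8.01%). The 5 with the interferon-stimulated letters were Psma4, Psmb3, Psmd4, Psmd7 and Psmg4, and no immunoproteasome gene was among them in this window. The letters TGAC also open the AP-1 and cyclic AMP elements, and 1 pair of matches overlapped, both CCAAT, at Psmd14. These are matches of letters and not sites of binding.

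The promoters were mostly rich in CpG. With a CpG-rich promoter defined by a GC content of at least 50% and a ratio of observed to expected CpG of at least 0.6 over 500 bp on either side of the TSS, 35 of the 49 genes qualified (71.4%, against 45.7% of all genes). The number of CpGs in that stretch ran from 8 at Psmb11 to 128 at Psma7, with a median of 56.0 (43.0 over all genes). Of the catalytic subunits, Psmb5 (60 CpGs) and Psmb7 (57) were in the CpG-rich class with Psmb9 (66), while Psmb6 (41), Psmb8 (44) and Psmb10 (16) were not.

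The lists held 10758 ATACseq peaks in WT and 10972 in Uhrf1hepKO, and 51702 and 47391 H2A.Z peaks. The fold of a peak is the authors' ratio of read pileup to local background, a mean over the region for ATACseq and the value at the summit for H2A.Z. Folds were not scaled between libraries. For H2A.Z, fold and p-value together gave a whole number of reads at the summit for 99.85% of WT and 99.81% of Uhrf1hepKO peaks (within 0.001 of a step). The genome backgrounds were 3.10 and 3.30 reads, a ratio of 1.06. They were those of 93.6% of WT and 91.4% of Uhrf1hepKO peaks, and the other peaks had another local background. The reads behind an ATACseq fold could not be recovered. Peaks do not check the deletion: the window of Uhrf1 held 1 peak in each of the 4 lists. Of the hepatocyte genes Alb, Apoa1 and Ttr, Alb had 1 peak, in Uhrf1hepKO ATACseq, Ttr had 1, in WT H2A.Z, and Apoa1 had 0. Hepatocyte genes can thus lack a peak in these lists, and a missing peak does not show closed chromatin. Why these 3 genes lacked peaks was not tested.

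Peaks within 5 kb of the TSS were more frequent at the proteasome genes than over all genes, for both assays and in both genotypes. An ATACseq peak was found at 27 of the 49 in WT (55.1%, Wilson 95% interval 41.3 to 68.1%), against 31.4% of all genes, and at 24 in Uhrf1hepKO (49.0%, 35.6 to 62.5%), against 29.0%. An H2A.Z peak was found at 45 in WT (91.8%, 80.8 to 96.8%), against 54.4%, and at 41 in Uhrf1hepKO (83.7%, 71.0 to 91.5%), against 52.6%. The WT and Uhrf1hepKO intervals overlapped in each assay. The same 49 genes were scored in both genotypes, so this overlap does not compare the genotypes. The difference from all genes was smaller among CpG-rich promoters. There, 22 of 35 proteasome genes had an ATACseq peak in WT (62.9%, against 51.5% of all CpG-rich genes) and 20 in Uhrf1hepKO (57.1%, against 47.1%), and both intervals (46.3 to 76.8% and 40.9 to 72.0%) contained the share of all such genes. For H2A.Z, 34 of 35 had a peak in WT (97.1%, 85.5 to 99.5%, against 79.1%) and 32 in Uhrf1hepKO (91.4%, 77.6 to 97.0%, against 77.1%).

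**Figure D1:**
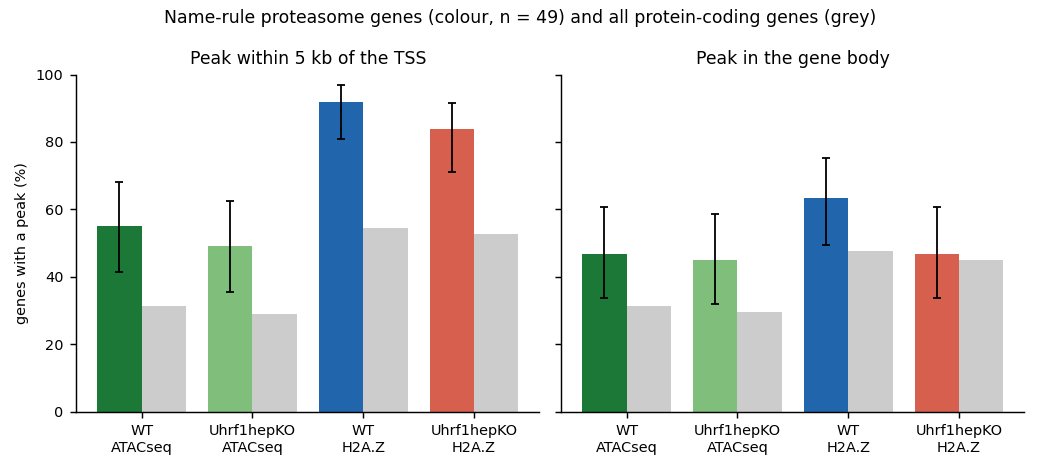
Genes holding a peak (% of genes, y axis) in the 5 kb window around the TSS (left) and in the gene body (right) in the 4 lists, for the 49 proteasome genes (coloured bars, Wilson 95% intervals) and all 20807 protein-coding genes (grey bars). Coloured bars exceed grey ones by the most for H2A.Z near the TSS, 91.8% against 54.4% in WT, and are nearest to them for Uhrf1hepKO H2A.Z in the gene body, 46.9% against 45.0%.

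In the gene body, 23 proteasome genes held an ATACseq peak in WT (46.9%, against 31.3% of all genes) and 22 in Uhrf1hepKO (44.9%, against 29.6%). An H2A.Z peak lay in 31 gene bodies in WT (63.3%, against 47.8%) and in 23 in Uhrf1hepKO (46.9%, against 45.0%). Nearly all of this was the start of the gene. Beyond 5 kb of the TSS, 1 gene had an ATACseq peak in each genotype (Psmb7 in WT, Psmd9 in Uhrf1hepKO), and 3 had an H2A.Z peak in each (Psma2 and Psma6 in both, Psmd9 in WT and Psmg2 in Uhrf1hepKO). Genes shorter than 5 kb, such as Psmb6 (2492 bp), have no such part, and the share over all genes was not counted.

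The members fell into a few patterns. A peak in all 4 lists was found at 18 (21.9% of all genes had this), and no peak in any list at 4, Psma6, Psma7, Psme2b and Psmd9 (40.6% of all genes). ATACseq peaks were in both genotypes at 18 (36.7%, against 24.0%), in WT only at 9 (18.4%, against 7.44%), in Uhrf1hepKO only at 6 (12.2%, against 5.07%) and in neither at 16 (32.7%, against 63.5%). H2A.Z peaks were in both at 41 (83.7%, against 50.4%), in WT only at 4 (8.16%, against 3.99%), in Uhrf1hepKO only at 0 (2.17% of all genes) and in neither at 4 (8.16%, against 43.4%). All 27 members with an ATACseq peak in WT also had H2A.Z in the window (92.3% of all genes with an ATACseq peak), as did 22 of 24 in Uhrf1hepKO (91.7%, against 90.1%). The 2 without were Psma4 and Psmb10. A further 18 genes in WT and 19 in Uhrf1hepKO had H2A.Z and no ATACseq peak (36.7 and 38.8%, against 25.4 and 26.4% of all genes).

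**Figure D2:**
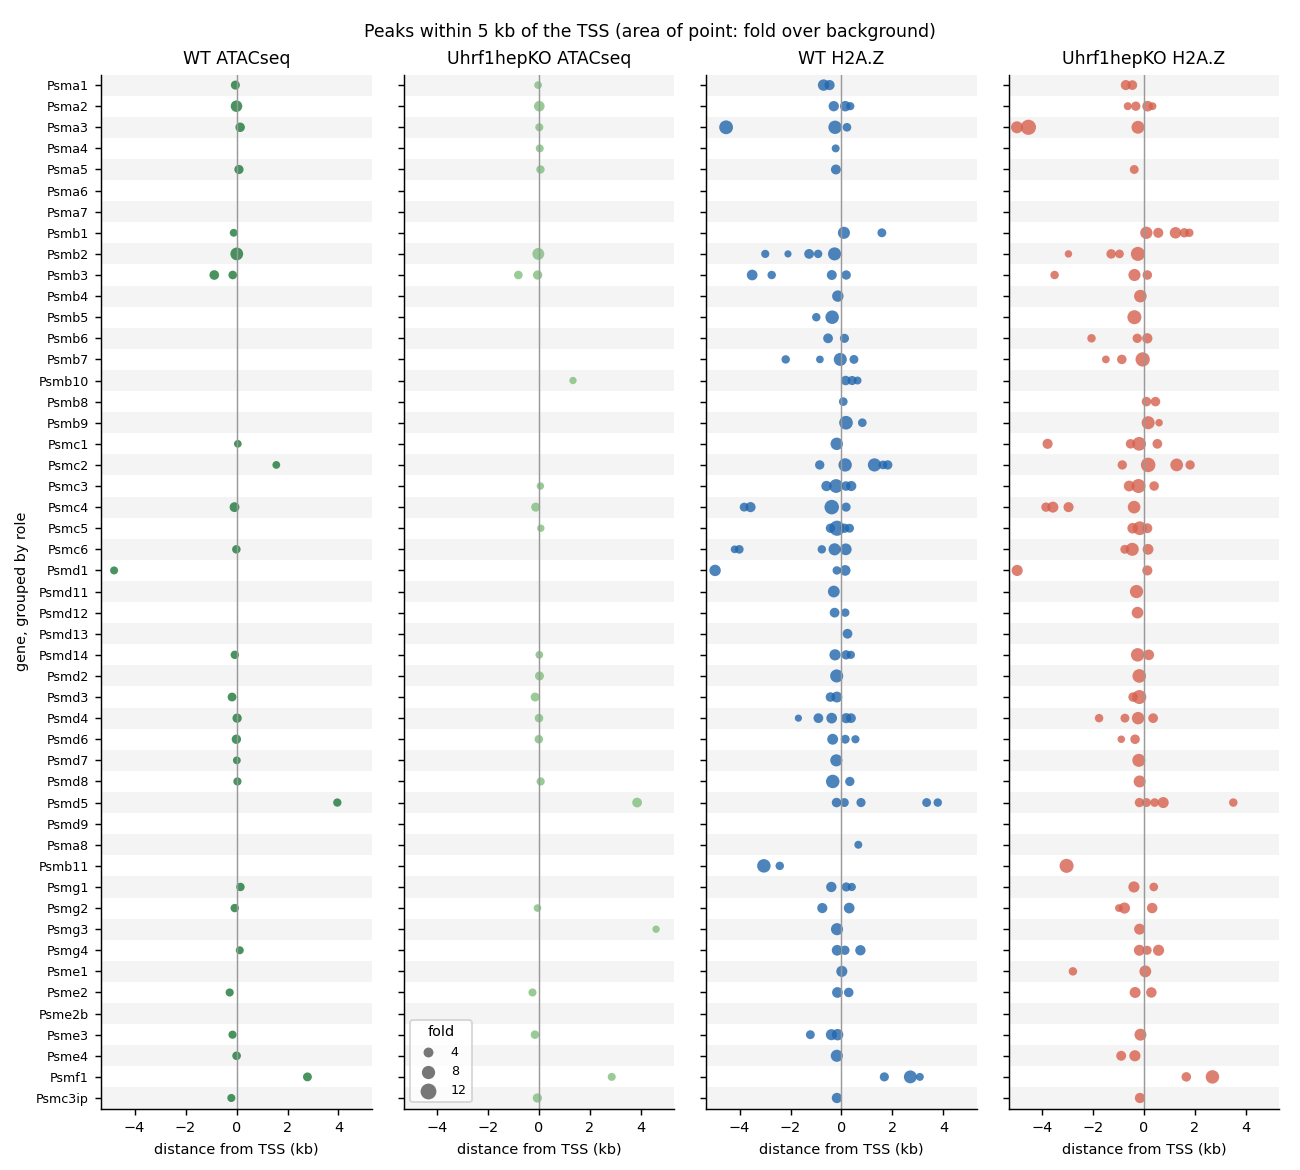
Each point is a peak within 5 kb of the TSS of 1 of the 49 genes (rows, grouped by role), placed by its distance from the TSS in kb (negative is upstream), with the area showing the fold, for the 4 lists. With distances from the outermost TSS, ATACseq peaks lie mostly on the TSS and H2A.Z peaks mostly on its sides. The rows of Psma6, Psma7, Psme2b and Psmd9 are empty.

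The immunoproteasome genes had no ATACseq peak in the WT windows, and H2A.Z at all 3. Psmb9 (chr17:34181987-34187764) carried the strongest H2A.Z of the 3. Its fold was 11.46 in WT, 177 bp downstream of the TSS with 46 reads (exact Poisson 95% interval 33.7 to 61.4), and 10.46 in Uhrf1hepKO, 165 bp downstream with 44 reads (32.0 to 59.1). The reads of both genotypes lay well within each other's interval. This summit lay in exon sequence shared with Tap1, the peptide transporter gene that is read in the opposite direction and overlaps Psmb9 by 212 bp, so the peak cannot be assigned to 1 of the 2 genes. A weaker peak stood further into Psmb9, at 817 bp with a fold of 4.63 in WT and at 593 bp with 3.49 in Uhrf1hepKO.

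Psmb8 (chr17:34197721-34201454), in the same MHC region, had a lower H2A.Z fold. In WT it was 4.63 at 70 bp, with 18 reads (10.7 to 28.4), in an exon. In Uhrf1hepKO, peaks stood at 98 and 452 bp, each with a fold of 5.58 and 23 reads (14.6 to 34.5), and both overlapped the single, wider WT peak. The read intervals overlapped between the genotypes.

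Psmb10 (chr8:105935735-105938444) differed between the lists in both assays. In WT it had 3 H2A.Z peaks, at 164, 418 and 630 bp downstream of the TSS, with folds of 5.61, 5.12 and 3.90 and with 22, 20 and 15 reads. In Uhrf1hepKO it had 0, and the nearest H2A.Z peak was 27783 bp from the TSS. ATACseq gave the reverse, with 0 peaks in WT (the nearest at 44792 bp) and 1 in Uhrf1hepKO, at 1333 bp with a fold of 3.30, the lowest among the strongest peaks of the members in that list. Its −log10 q of 1.06 was near the limit of the list, where the highest q-value was 0.0993. That peak lay 73 bp before another annotated transcript start of Psmb10. With 1 library each, whether further livers would show the same was not tested.

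The constitutive partners also lacked ATACseq peaks in the window, and the strongest H2A.Z peak of each had more reads than those of Psmb8 and Psmb10, by 1 read over Psmb10 at Psmb6 in WT. Psmb5 (chr14:54614119-54618022) had its strongest H2A.Z peak in intergenic sequence 366 bp upstream in WT, with a fold of 11.21 and 45 reads (32.8 to 60.2), and 375 bp upstream in Uhrf1hepKO, with 12.08 and 51 reads (38.0 to 67.1). A second WT peak, 989 bp upstream with a fold of 4.39, lay under the same, wider Uhrf1hepKO peak. Psmb7 (chr2:38588036-38644087) had a fold of 10.48 in WT, 47 bp upstream with 42 reads (30.3 to 56.8), and of 12.55 in Uhrf1hepKO, 51 bp upstream with 53 reads (39.7 to 69.3). Psmb6 (chr11:70525367-70527858) was lower. Its WT peaks were 527 bp upstream (5.85, 23 reads) and 116 bp downstream (5.12, 20 reads), and its Uhrf1hepKO peaks were 2058 and 264 bp upstream (4.42 and 5.35) and 130 bp downstream (6.51, 27 reads). Only the downstream peaks of Psmb6 overlapped between the genotypes.

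**Figure D3:**
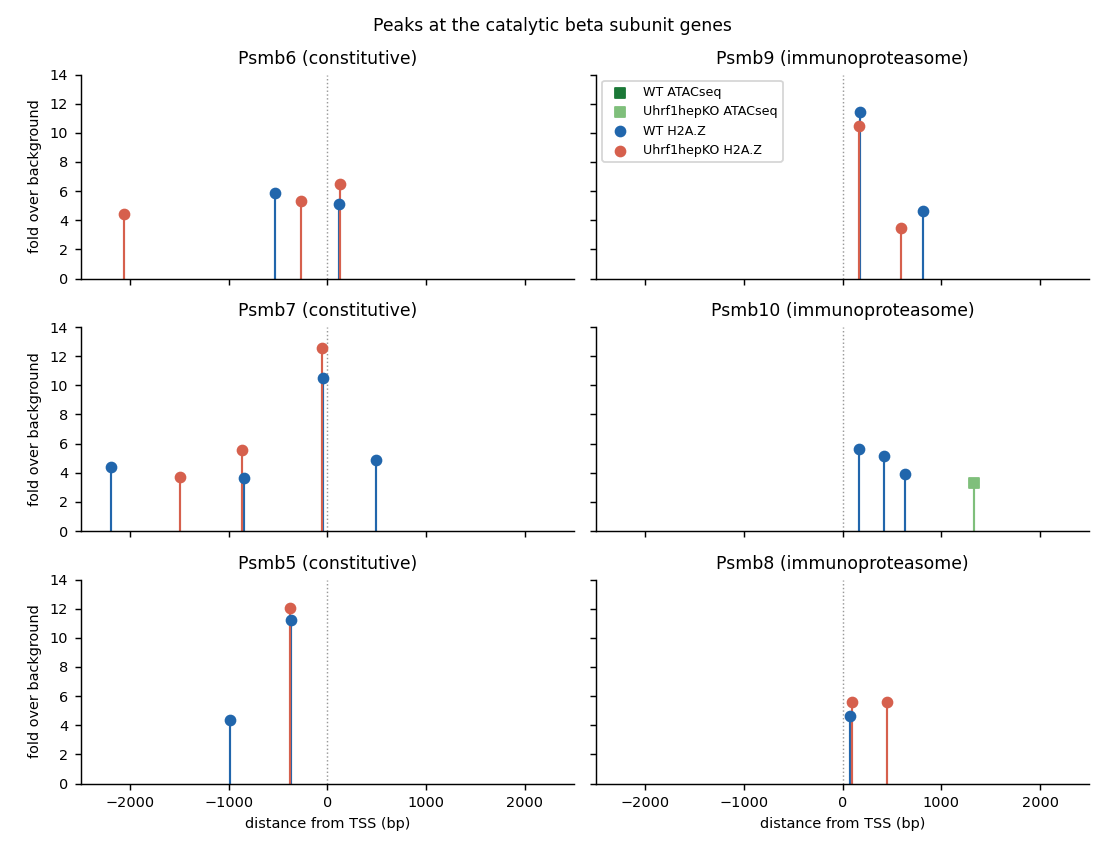
Folds over background (y axis) of all peaks of the 5 kb window, by distance from the TSS (x axis, bp), at the constitutive catalytic genes Psmb6, Psmb7 and Psmb5 (left) and the immunoproteasome genes that replace them, Psmb9, Psmb10 and Psmb8 (right), with circles for H2A.Z and squares for ATACseq. The single ATACseq peak is that of Psmb10 in Uhrf1hepKO, no WT ATACseq peak is present, and the H2A.Z peaks of the immunoproteasome genes are all downstream of the outermost TSS, from which distances are drawn.

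Side by side, all peaks at the 3 immunoproteasome genes lay downstream of the outermost annotated TSS, and the strongest peaks of Psmb5 and Psmb7 lay upstream of theirs. From the nearest annotated transcript start, however, the third WT H2A.Z peak of Psmb10 (149 bp), its Uhrf1hepKO ATACseq peak (73 bp) and the second Uhrf1hepKO H2A.Z peak of Psmb8 (197 bp) lay upstream. Among all 7 constitutive beta genes, H2A.Z was found at 7 in both genotypes, with a median strongest fold of 9.02 in WT (5.85 to 11.2) and 9.76 in Uhrf1hepKO (6.51 to 12.6). ATACseq peaks were found at 3 of the 7 in WT (Psmb1, Psmb2 and Psmb3) and 2 in Uhrf1hepKO (Psmb2 and Psmb3). Psmb2 had the highest ATACseq fold of the 49 genes in both lists, 10.03 in WT, 10 bp past the TSS, and 8.69 in Uhrf1hepKO, 27 bp before it. The capitals in its sequence above fall under both of these peaks. Its strongest H2A.Z peak, 272 bp upstream in WT (10.48, 42 reads) and 240 bp upstream in Uhrf1hepKO (12.08, 51 reads), stood beside the ATACseq peak. Psmb3 had 2 ATACseq peaks in each genotype, one near the TSS and one further upstream. In WT these were 149 and 873 bp upstream, with folds of 4.58 and 5.73, and in Uhrf1hepKO 54 and 810 bp upstream, with folds of 5.32 and 4.55. Psmb1, whose TSS is 137 bp from that of the TATA-binding protein gene Tbp, had a WT ATACseq peak of fold 3.80, none in Uhrf1hepKO, and H2A.Z folds of 9.02 and 9.30 at 96 and 93 bp downstream. Psmb4 had no ATACseq peak and a single H2A.Z peak in each genotype, with folds of 8.04 and 9.76.

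Of the 7 alpha subunit genes, 4 had an ATACseq peak in WT and 5 in Uhrf1hepKO. Psma2 had the highest fold, 8.19 in WT and 6.88 in Uhrf1hepKO, on the TSS it nearly shares with the mitochondrial ribosomal gene Mrpl32, 75 bp away. Psma1 had the lowest of the WT folds, 5.01, and 3.62 in Uhrf1hepKO. H2A.Z was at 5 alpha genes in WT and 4 in Uhrf1hepKO. The highest fold was at Psma3, 11.70 in WT (47 reads) and 14.18 in Uhrf1hepKO (60 reads), but this peak lay 4527 and 4533 bp upstream in intergenic sequence, and the peak next to its TSS had folds of 10.97 and 10.23. Psma4 had the weakest H2A.Z, 1 WT peak of fold 3.90 with 15 reads (8.40 to 24.7) in the overlapping gene AY074887 and 0 in Uhrf1hepKO, where it had instead an ATACseq peak of fold 3.92. Psma7 had 128 CpGs around its TSS, the most of all members, and the nearest peak of any list was 17242 bp away.

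Genes of the 19S ATPases carried the strongest H2A.Z of the main classes. All 6 had a peak in both genotypes, with a median strongest fold of 11.3 in WT (9.02 to 14.1) and 11.6 in Uhrf1hepKO (9.76 to 13.0). For comparison, the median over all protein-coding genes with a peak was 7.31 and 7.44. Psmc5 had the highest WT fold of all members, 14.14, at 175 bp upstream with 57 reads (43.2 to 73.9), within an exon of Ftsj3, whose TSS is 75 bp away. In Uhrf1hepKO the same peak had a fold of 11.62 and 49 reads (36.3 to 64.8). Psmc6 had the lowest of the class in WT, 9.02 with 36 reads, and 10.46 with 44 reads in Uhrf1hepKO.

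At the same genes, ATACseq peaks were mostly called in 1 genotype. Over all genes, 24.0% had an ATACseq peak in both, 7.44% in WT only and 5.07% in Uhrf1hepKO only. Psmc4 alone of the 6 had an ATACseq peak in both genotypes, with folds of 5.95 and 5.08. Psmc1 (3.62), Psmc2 (3.71, at 1560 bp downstream) and Psmc6 (4.46) had one in WT only. Psmc3 (3.39) and Psmc5 (3.33) had one in Uhrf1hepKO only. Every one of these 5 had H2A.Z in both genotypes. Except at Psmc6 (−log10 q of 3.08), their ATACseq peaks were near the limit of the lists. The −log10 q was 1.35 at Psmc1, 1.51 at Psmc2, 1.15 at Psmc3 and 1.04 at Psmc5. The highest q-values listed were 0.0997 in WT and 0.0993 in Uhrf1hepKO.

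All 11 genes of the other 19S subunits had H2A.Z in WT, with a median strongest fold of 7.80 (5.85 to 11.2), and 10 had it in Uhrf1hepKO, with a median of 10 (5.58 to 12.1). The exception was Psmd13, whose single WT peak, 236 bp downstream in exon sequence shared with Sirt3, had a fold of 5.85 and 23 reads. Psmd8 had the highest WT fold, 11.21, and 8.83 in Uhrf1hepKO. Psmd12 tied with Psmd13 for the lowest, 5.85, and had 8.37 in Uhrf1hepKO. ATACseq peaks were found at 7 in WT and 6 in Uhrf1hepKO. Psmd6 had the highest WT fold (5.40, and 4.53 in Uhrf1hepKO) and Psmd7 the lowest (3.76), with none in Uhrf1hepKO. The peak of Psmd1, also in WT only, was 4804 bp upstream with a fold of 3.93. Psmd2, with a fold of 4.95 at 19 bp, had one in Uhrf1hepKO only. Psmd11, Psmd12 and Psmd13 had none in either genotype.

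Among activators and the inhibitor, the inhibitor gene Psmf1 had the highest WT folds in both assays. Its ATACseq fold was 4.83 in WT and 3.93 in Uhrf1hepKO, and its H2A.Z fold was 10.24 (41 reads) and 11.16 (47 reads). These peaks stood 2782 and 2853 bp (ATACseq) and 2701 and 2686 bp (H2A.Z) inside the gene, next to another annotated transcript start, from which the ATACseq centres were 94 and 23 bp and the H2A.Z summits 175 and 190 bp upstream.

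Psme1 and Psme2 encode the interferon-induced 11S activator that often caps the immunoproteasome. Psme1 had no ATACseq peak and H2A.Z folds of 7.56 and 8.60, while Psme2 had ATACseq folds of 4.08 and 4.0, and H2A.Z folds of 7.07 and 7.44. The WT folds of Psme2 were the lowest of the class. Psme3 had an ATACseq peak in both genotypes (4.12 and 4.44) and Psme4 in WT only (4.58). Psme2b, a copy of Psme2 of 837 bp with 16 CpGs around its TSS, had no peak in any list. Whether reads shared with Psme2 were lost there was not tested.

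Assembly chaperone genes had ATACseq peaks at 4 of 6 in WT, with folds from 3.90 at Psmg4 to 4.40 at Psmg1, and neither of these had one in Uhrf1hepKO. Psmg2 had one in both (4.35 and 3.52), as did Psmd5 (4.25 and 5.82, 3954 and 3849 bp inside the gene, 52 and 157 bp upstream of another transcript start). Psmg3 had one in Uhrf1hepKO only, at 4593 bp in an intron of Gm26938 with a fold of 3.34. H2A.Z was at 5 of 6 in both genotypes, from 5.61 at Psmd5 to 9.02 at Psmg3 in WT, with 7.44 at both in Uhrf1hepKO.

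The 2 tissue-restricted core genes had no ATACseq peak. Psmb11, expressed in the thymic cortex, had H2A.Z folds of 11.21 and 12.08, but these peaks were those of Psmb5, whose TSS lies in the same window, and were 3045 and 3036 bp upstream of Psmb11. Psma8, expressed in testis, had 1 WT H2A.Z peak of fold 3.90 and 15 reads, 660 bp inside the gene, and 0 in Uhrf1hepKO. Psmc3ip had peaks in all lists, with ATACseq folds of 4.01 and 5.21 and H2A.Z folds of 6.58 and 6.51.

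Psma6 and Psmd9, which had no peak in the window, had peaks further into the gene, the H2A.Z peaks near the starts of other transcripts. In Psma6 (chr12:55384222-55418454) an H2A.Z peak with 39 reads in each genotype (27.7 to 53.3, folds 9.75 and 9.30) lay 14348 and 14330 bp into the gene, 205 and 223 bp upstream of another annotated transcript start. In Psmd9 (chr5:123169413-123250131) a WT H2A.Z peak of fold 5.85 lay 58972 bp into the gene, 127 bp past another start, and a Uhrf1hepKO ATACseq peak of fold 3.87 lay 27479 bp into it, with no annotated start of Psmd9 nearer to it than the TSS. With the TSS of any transcript, 47 of 49 genes had H2A.Z in WT and 42 in Uhrf1hepKO, and only Psma7 and Psme2b had none in either. This rule searches more sequence per gene, and the share over all genes was not counted with it. The ATACseq peak of Psmb7 beyond 5 kb, with a fold of 3.75, lay in an intron 36153 bp in. The H2A.Z peaks deep in Psma2, at 16752 bp and beyond with folds of up to 7.56 in WT and 6.74 in Uhrf1hepKO, lay in or just outside AW209491 in the long annotated span of Psma2, and that of Psmg2 in Uhrf1hepKO, at 9128 bp, had a fold of 4.42.

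Peaks without an overlapping peak in the other genotype had lower median folds and, for H2A.Z, a lower median of reads. Members' WT ATACseq peaks that overlapped a Uhrf1hepKO peak numbered 19 of 28 (67.9%, against 72.9% of all WT peaks within 5 kb of a TSS) and had a median fold of 4.83, against 3.90 for the other 9. In Uhrf1hepKO, 19 of 25 overlapped (76.0%, against 78.0%), with a median of 4.53 against 3.36 for the other 6. For H2A.Z, 81 of 109 WT peaks overlapped (74.3%, 65.4 to 81.6%, against 78.3%), as did 86 of 96 Uhrf1hepKO peaks (89.6%, 81.9 to 94.2%, against 84.4%). The 28 WT H2A.Z peaks without a partner had 12 to 23 reads, with a median of 18, against 26 for those with one. The 10 in Uhrf1hepKO had 14 to 26 reads, with a median of 18 against 29. At all 4 genes with H2A.Z in WT only (Psma4, Psma8, Psmb10 and Psmd13), every peak had 23 reads or fewer. Over all genes, peaks without a partner also had the lower median of reads (17 in WT and 19 in Uhrf1hepKO, against 25 and 26 with one).

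At the 41 genes with H2A.Z in both genotypes, the strongest peak had a median of 39.0 reads in Uhrf1hepKO, and over all 45 WT genes with a peak the median was 32.0. The medians over all protein-coding genes were 31.0 and 29.0. The strongest peak had more reads in Uhrf1hepKO at 32 of the 41 and fewer at 9. The median ratio was 1.15, against 1.07 over all genes and 1.06 for the background. Reads were not scaled between the libraries, and the share of all genes with more reads in Uhrf1hepKO was not counted. At 5 of the 41 (Psmb3, Psmb6, Psmg2, Psmg4 and Psmd5) the strongest peaks of WT and Uhrf1hepKO were different, non-overlapping peaks. The strongest peaks overlapped at the other 36, against 80.6% of all genes with peaks in both genotypes. Psmb11 repeats the peak of Psmb5. Over the 35 distinct strongest peaks that overlapped between the genotypes, a restriction chosen after the data were seen, 26 had more reads in Uhrf1hepKO and 9 fewer, and the median ratio was again 1.15, against 1.07 over all genes with such peaks. The ratio over the 41 ran from 0.788 at Psmc4 (52 reads in WT and 41 in Uhrf1hepKO) to 1.76 at Psmd3 (29 and 51). The Poisson interval of Psmd3 was 19.4 to 41.6 in WT and 38.0 to 67.1 in Uhrf1hepKO. The 2 intervals overlapped at all 41 genes, with 0 exceptions, which does not show that the levels were equal.

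**Figure D4:**
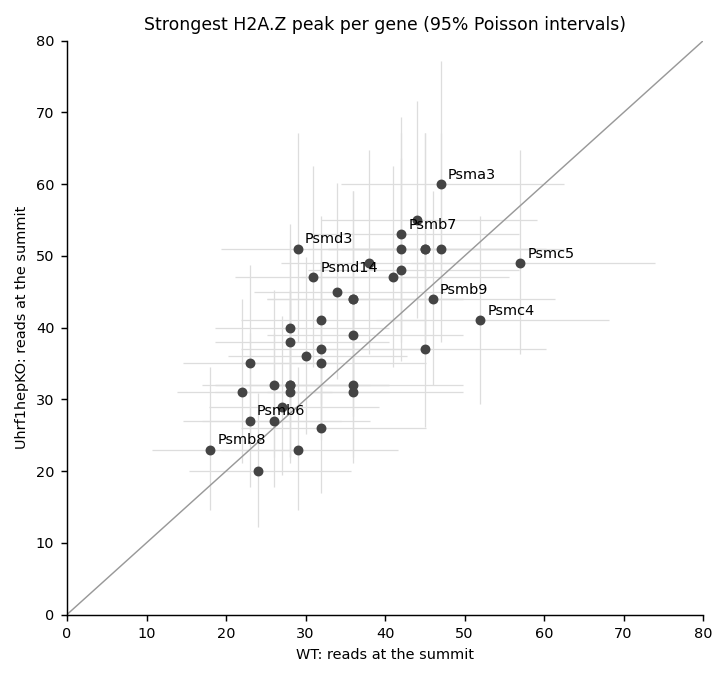
Reads at the summit of the strongest H2A.Z peak in WT (x axis) and Uhrf1hepKO (y axis) for the 41 genes with a peak in both, with exact Poisson 95% intervals (grey) and the line of equal reads. Points lie above the line for 32 genes and below it for 9, with Psmd3 (29 and 51) the farthest above it by ratio and Psmc4 (52 and 41) the farthest below. At 5 genes the 2 values come from different peaks. Reads were not scaled between the libraries, and the share of all genes above the line was not counted.

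Measured from the outermost TSS, H2A.Z stood mostly on its sides and ATACseq peaks mostly on it. Centres of the members' ATACseq peaks lay within 200 bp of the TSS for 21 of 28 in WT (75.0%, 56.6 to 87.3%, against 62.9% of the peaks in the windows of all genes) and 19 of 25 in Uhrf1hepKO (76.0%, 56.6 to 88.5%, against 61.8%), and both intervals contained the share over all genes. Of the 86 WT H2A.Z summits within 1 kb of the TSS, 4 were within 100 bp of it, 45 further upstream and 37 further downstream. In Uhrf1hepKO, of 74 summits, 5 were within 100 bp, 46 upstream and 23 downstream. The number of downstream summits in Uhrf1hepKO was thus 0.622 times that in WT, against 0.900 over all genes, and that of upstream summits 1.02 times, against 0.943. Some summits beyond 100 bp of the outermost TSS were close to another annotated transcript start. In WT these included summits of Psmc3 (384 bp from the TSS, 11 bp from another start) and Psme2 (284 and 35 bp). The scarcity of summits at the TSS thus depends in part on the TSS used, and the share within 100 bp over all genes was not counted. Counted by gene, a downstream summit was found at 25 in WT (51.0%, 37.5 to 64.4%, against 29.7% of all genes) and at 19 in Uhrf1hepKO (38.8%, 26.4 to 52.8%, against 27.8%). An upstream summit was found at 36 in WT (73.5%, against 38.0%) and at 34 in Uhrf1hepKO (69.4%, against 36.5%). The intervals of the genotypes overlapped, which does not compare them, since the same genes were scored in both. The 16 downstream WT peaks without a Uhrf1hepKO partner had 15 to 23 reads. With peaks of at least the median fold of their list the counts were 20 and 18 genes, and all genes were not recounted that way.

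**Figure D5:**
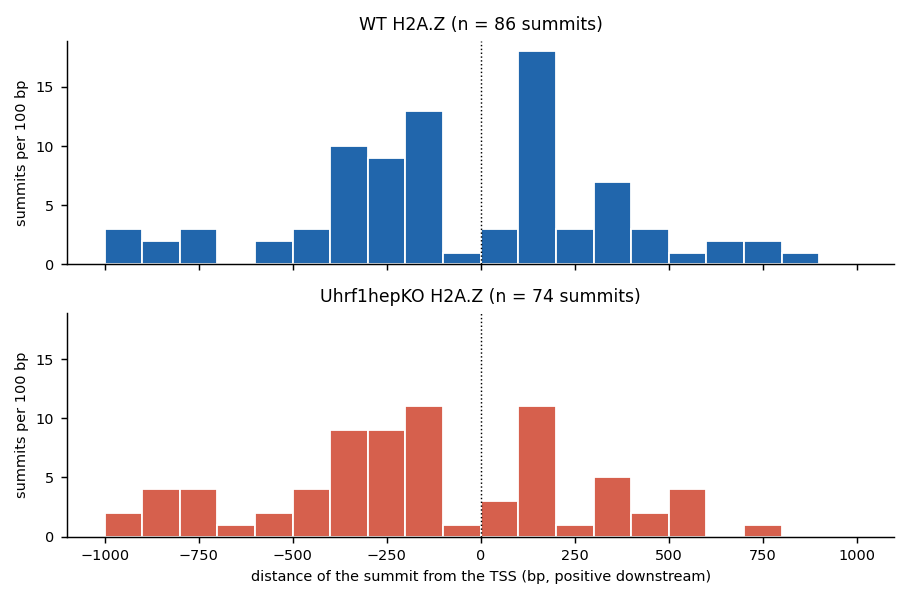
Number of H2A.Z summits per 100 bp within 1000 bp of the members' TSSs (x axis, bp, positive downstream) in WT (86 summits, top) and Uhrf1hepKO (74, bottom). Distances are drawn from the outermost TSS, and some summits lie nearer to another annotated transcript start. Summits are sparse at the outermost TSS in both, and those downstream number 37 in WT and 23 in Uhrf1hepKO beyond 100 bp.

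The ATACseq peak nearest the TSS had H2A.Z summits within 1 kb on both sides at 15 of 27 genes in WT (55.6%, 37.3 to 72.4%, against 53.5% of all genes with an ATACseq peak) and at 8 of 24 in Uhrf1hepKO (33.3%, 18.0 to 53.3%, against 47.9%). Those with both sides in both genotypes were Psma2, Psmb3, Psmd4, Psmd14 and Psmg2. Of the 10 with both sides in WT only, Psmc2, Psmc6, Psmg1 and Psmg4 had no ATACseq peak in Uhrf1hepKO, and Psma3, Psmc4, Psmd6, Psmd8, Psme3 and Psmf1 kept one without H2A.Z on both sides of it. No least distance between centre and summit was asked for. At Psme3 in WT the centre lay 157 bp upstream of the TSS and the H2A.Z summit counted on its TSS side 152 bp upstream. That summit lay within the ATACseq peak, so Psme3 is no clear case of flanking. Psmc3, Psmc5 and Psme2 had both sides in Uhrf1hepKO only. The strongest H2A.Z peak of a gene was upstream of its TSS at 34 of 45 in WT (75.6%, 61.3 to 85.8%, against 65.8% of all genes with a peak) and at 31 of 41 in Uhrf1hepKO (75.6%, 60.7 to 86.2%, against 65.7%).

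Of a list of 24 genes for the expression, assembly and use of the proteasome, 22 were found on these chromosomes. An H2A.Z peak was within 5 kb of 19 in WT and 20 in Uhrf1hepKO, and an ATACseq peak of 10 in each, where the shares over all genes were 54.4 and 52.6% for H2A.Z and 31.4 and 29.0% for ATACseq. Nfe2l1, the transcription factor that raises proteasome genes, had all 4, with ATACseq folds of 4.92 and 4.80 and H2A.Z folds of 8.29 and 9.30. The protease gene Ddi2 and the glycanase gene Ngly1 act on the Nfe2l1 protein. Ddi2 had only a Uhrf1hepKO H2A.Z peak (5.35), and Ngly1 had all 4 (ATACseq 3.54 and 3.44, H2A.Z 4.39 and 5.35). Sem1 and Adrm1 encode 19S subunits that the name rule leaves out. Sem1 had the highest H2A.Z folds of the list in Uhrf1hepKO and, tied with the nuclear import factor gene Akirin2, in WT (16.33 in WT at both, and 16.50 and 15.11 in Uhrf1hepKO), above those of every proteasome member. Adrm1 had 5.85 and 5.58. The core chaperone gene Pomp had 5.36 and 5.81, with no ATACseq peak. Of genes that act with the immunoproteasome in antigen presentation, Tap1 shared the peak of Psmb9, Tap2 had H2A.Z folds of 6.34 and 8.13, and their regulators Irf1 (4.87 and 4.42) and Nlrc5 (6.34 and 5.81) had H2A.Z and no ATACseq peak. Tapbp had H2A.Z folds of 4.87 and 6.04 and, in Uhrf1hepKO only, an ATACseq peak of fold 3.86, 3645 bp downstream of the TSS.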

How the data were processed

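Peak lists of 4 libraries were used, 1 per assay and genotype. For each library separately, the authors mapped reads with BWA-MEM (GRCm38.p4), processed the alignments with PICARD, including removal of duplicates for ChIPseq, and ran MACS2 at a stated p of 0.05, in broad mode for ATACseq. The submitters' processing notes also name FastQC 0.11.5 and Trimmomatic. The version of MACS2, a control library, a shift of ATACseq reads and the mode of the H2A.Z calls are not given in the sources used here. The ATACseq reads are described as single-end although the paired-end option was used for calling, so peak centres may be offset. In the deposited lists the score is 10 times the −log10 q-value. The fold is a ratio that the authors' caller computed as pileup plus 1 over background plus 1, and the −log10 p- and q-values deposited with it come from the same caller. The deposited summit of H2A.Z is another value, its distance from the peak start in bp.

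From these lists, peaks on chromosomes 1 to 19 were overlapped (1 bp) with a window reaching 5 kb up- and downstream of the TSS (the outermost 5′ end) of each GENCODE vM21 protein-coding gene and with gene bodies. Coordinates are 1-based, in GRCm38. Distances use the H2A.Z summit or the centre of the ATACseq peak. Reads at H2A.Z summits were solved from fold and p-value. Roles and gene lists were chosen with earlier results of these data known. Genes named with values are the catalytic subunits and their immunoproteasome counterparts, the highest and lowest WT fold per class and assay, members without a peak in an assay or with one in 1 genotype only, and those with peaks in the gene body beyond 5 kb. A few others (Psma1, Psmb3, Psmb4, Psmd3, Psme3, Psmg2 and Psmc3ip among them) were named after their values were seen. Shares have Wilson and reads exact Poisson 95% intervals. With 1 library per condition no test was run. The depth is known only through the lists, and a lower-depth site can be missing from them. Windows, TSSs, peak thresholds, overlap rules and the gene set were varied 1 at a time.

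On simulated data, 200 of 200 overlaps, 200 of 200 reciprocal overlaps and 200 of 200 window counts matched a direct comparison, and 500 of 500 read numbers were recovered. Scripts ran in Python 3.11.15 with scipy 1.17.1, pandas 2.3.3 and numpy 2.4.6, and matplotlib 3.10.9 drew the figures.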

Additional observations from a re-analysis of the deposited data

How the results depend on the processing

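Of 85 alternative values for 21 shares, medians and ratios, 70 stayed within the counting interval of the value reported and 15 left it. The alternatives were computed for the members only, so no share over all genes stands beside them. No paired analysis was possible because each genotype had 1 library per assay. Peaks with at least the median fold of their list left ATACseq peaks near the TSS at 32.7% of the genes in WT and 26.5% in Uhrf1hepKO and in the gene body at 28.6% and 22.4%, and raised the overlap of WT H2A.Z peaks with Uhrf1hepKO to 84.0%. With q of 0.01 or less, Uhrf1hepKO ATACseq peaks were near the TSS at 34.7% and 88.9% of them overlapped a WT peak. In the gene body beyond 5 kb, the shares were 2.04% in both ATACseq lists and 6.12% in both H2A.Z lists. Asking for 50% of both peaks lowered the H2A.Z overlap to 57.8% in WT and 65.6% in Uhrf1hepKO. Over all peaks in the window, the median reads in Uhrf1hepKO were 26.5. The counts of downstream summits and their alternatives were added after the data were seen, and with the TSS of any transcript a downstream H2A.Z summit was at 24.5% of the genes in Uhrf1hepKO and 42.9% in WT. Each alternative changed the peaks used, the overlap asked for, the region or the TSS, and the causes of these shifts were not tested. The depth limits all statements on missing peaks, since a site with few reads is not in the lists, and 1 library per genotype and assay leaves the spread between mice unknown.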

Other observations

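Proteasome genes often had a close neighbour. At 17 of the 49 genes, another protein-coding gene started less than 5 kb away (34.7%, against 19.8% of all genes). At 7 (14.3%, against 6.96%) it belonged to a gene on the opposite strand that starts within 1 kb upstream and runs the other way. These pairs were Psma2 with Mrpl32 (75 bp apart), Psma7 with Ss18l1 (76 bp), Psmb1 with Tbp (137 bp), Psmc2 with Dnajc2 (32 bp), Psmc5 with Ftsj3 (75 bp), Psme2 with Rnf31 (595 bp) and Psmg2 with Cep76 (263 bp). Psmc3 faced a noncoding transcript, Gm13778, at 76 bp.

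The strongest H2A.Z peak lay upstream of the TSS at 2 of the 6 paired members with a peak in WT and at 3 of 6 in Uhrf1hepKO. Among the other members it was upstream at 32 of 39 in WT and 28 of 35 in Uhrf1hepKO. Over all genes of such pairs the share was 55.3% in WT and 55.1% in Uhrf1hepKO, and over the remaining genes 67.2% and 67.1%. Upstream of a paired gene is the transcribed side of its neighbour, so the peak at Psmc5, for one, was in an exon of Ftsj3, and the signal cannot be divided between the genes. With 6 members in the pairs, these counts are a description and no difference was tested.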
